A study of Mus musculus with 20 samples.

Results

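The blood-brain barrier endothelial genes described here are a list of 10 genes, Cldn5, Slc2a1, Mfsd2a, Pecam1, Flt1, Abcb1a, Slco1a4, Slco1c1, Adgrf5 and Slc38a5, out of 54532 genes in the table. They were chosen by name as genes of brain endothelium and not by a rule on measured values, though earlier results of these data were known. Each of the 10 symbols matched 1 gene. RNA sequencing of whole hypothalamus of male C57BL/6J mice gave 20 libraries in 5 groups. Gly-Low is a diet carrying compounds that lower glycation, in which reactive sugar products attach to proteins without an enzyme. The acute arm held 4 acute Gly-Low libraries and 5 acute control libraries, all from mice 4 months old after 1 week on Gly-Low or control diet. The ageing arm compared mice of 25 months, fed Gly-Low (3 old Gly-Low libraries) or control diet (4 old control libraries) for 5 months, with mice of 3 months given 1 week of control diet (4 young control libraries). Whether the libraries are from separate animals is not stated in the labels, and the p-values therefore reflect only the spread between these samples, which may be technical. Each library held 15848372 to 27399753 counted reads.

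The blood-brain barrier is formed by endothelial cells that are sealed to each other by tight junctions, carry little vesicle traffic and have no pores. Because solutes cannot pass between the cells, glucose, amino acids, lipids and hormones cross on dedicated carriers, while efflux pumps return many drugs to the blood. In the hypothalamus the barrier is interrupted at the median eminence, where capillaries are fenestrated and blood-borne signals reach the tissue. Among the listed genes, Cldn5 encodes the claudin of the tight junction, and Pecam1, Flt1 and Adgrf5 encode an adhesion molecule, a receptor for vascular endothelial growth factor (VEGF) and an adhesion G protein-coupled receptor. Slc2a1, Mfsd2a, Slc38a5, Slco1a4 and Slco1c1 encode carriers of glucose, lysophospholipid, glutamine, organic anions and thyroid hormone, and Abcb1a encodes the efflux pump P-glycoprotein.

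One week of Gly-Low was accompanied by lower levels of 7 of the 10 genes and higher levels of none, in a comparison in which 30.5% of all genes tested were lower and 27.8% higher. Adgrf5, Pecam1, Slc38a5 and Flt1 fell most, to between 0.157 and 0.284 of the acute control level, and Cldn5, Slco1c1 and Slc2a1 fell less. Mfsd2a, Slco1a4 and Abcb1a did not pass the test. The acute libraries also differed in the level of long against short transcripts. With each library's slope over transcript length as a covariate, 4 of the 10 were lower, against 8.76% of all genes. Flt1, Slc38a5 and Cldn5 then no longer passed. Flt1 was at a log2 fold change of -0.15 ± 0.48. Slc38a5 stayed at -1.94 ± 0.69 and Cldn5 was at -1.64 ± 0.61, both with a larger SE than without the covariate. The slopes of the acute groups did not overlap, so the covariate and the acute diet largely go together. Neither 5 months of Gly-Low in old mice nor age moved any of the 10 past the threshold, although Slc38a5 lay lower in each old Gly-Low library than in any old control.

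Sequence windows at an annotated start are shown for 4 of the genes because their levels carry these results. Adgrf5 and Flt1 fell strongly in the acute arm, though Flt1 did not with the length covariate. Cldn5 is the junction gene, and Slc38a5 separated the groups in both diet comparisons. Each sequence is from RefSeq on GRCm38.p6 and runs from 250 bases before to 50 bases after an annotated gene start. These starts can differ from those of GENCODE, used for the genes. The Slc38a5 window lies almost wholly within the GENCODE gene, which starts at 8271133. The Abcb1a window, not shown, ends at 8567140, well before the GENCODE start at 8660077. Capitals mark GGAA or its reverse complement TTCC, the core bound by ETS factors, a family with members that act in endothelium.
Adgrf5, chr17:43360181-43360480, plus strand: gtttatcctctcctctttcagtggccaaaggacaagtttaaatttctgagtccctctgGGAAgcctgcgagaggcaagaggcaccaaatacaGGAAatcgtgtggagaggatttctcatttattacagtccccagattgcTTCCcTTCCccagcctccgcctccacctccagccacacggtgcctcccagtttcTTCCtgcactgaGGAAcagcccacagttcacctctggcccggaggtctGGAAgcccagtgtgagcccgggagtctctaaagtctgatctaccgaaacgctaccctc
Flt1, chr5:147725962-147726261, minus strand: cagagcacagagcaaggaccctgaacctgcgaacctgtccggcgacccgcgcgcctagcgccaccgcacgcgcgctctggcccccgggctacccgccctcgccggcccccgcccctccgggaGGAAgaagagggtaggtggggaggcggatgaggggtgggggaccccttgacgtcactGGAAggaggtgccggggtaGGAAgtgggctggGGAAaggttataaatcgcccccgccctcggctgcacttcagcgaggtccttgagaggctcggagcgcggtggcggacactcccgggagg
Cldn5, chr16:18776597-18776896, plus strand: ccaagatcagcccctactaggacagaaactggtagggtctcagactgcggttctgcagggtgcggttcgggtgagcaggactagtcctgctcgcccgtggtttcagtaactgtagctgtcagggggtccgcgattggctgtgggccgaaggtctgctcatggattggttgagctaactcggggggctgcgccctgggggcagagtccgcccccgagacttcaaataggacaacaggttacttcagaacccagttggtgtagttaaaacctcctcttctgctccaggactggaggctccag
Slc38a5, chrX:8271131-8271430, plus strand: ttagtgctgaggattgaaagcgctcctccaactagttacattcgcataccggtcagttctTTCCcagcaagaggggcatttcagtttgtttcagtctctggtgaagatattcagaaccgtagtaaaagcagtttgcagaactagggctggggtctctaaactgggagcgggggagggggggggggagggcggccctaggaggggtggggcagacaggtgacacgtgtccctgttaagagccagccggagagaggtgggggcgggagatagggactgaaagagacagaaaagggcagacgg
Windows were matched for 9 of the 10 genes, with 10 windows in all since Adgrf5 has a second start. GGAA on either strand was found in 8 of these 10 windows, against 96.0% of 32851 mouse windows of the same length, and Cldn5 held none. The hypoxia element core ACGTG was in 4 windows (19.6% of all), GGGCGG in 4 (35.7%), TATAAA in 3 (13.6%), CTTTGA in 2 (16.003%), and AACAAT (10.7%) and GTAAACA (3.65%) in 1 each. CCGGAA, which overlaps GGAA, was in 0 (14.9%); each motif was searched on both strands, and a match describes letters only. The windows differed in CpG content: Flt1 had 29 CpG pairs, Mfsd2a 22 and Slc2a1 18, while Abcb1a had 2 and Slco1a4 and Slco1c1 1 each, against a median of 7 over all windows.

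Levels are CPM, read counts scaled to a common library size by the trimmed mean of M-values (TMM) over the 20 libraries. Divided by transcript length, the mean levels in young control were highest for Slc2a1, at 30.3 ± 2.43 CPM per kb, followed by Cldn5 at 18.1 ± 3.83, Slco1c1 at 13.8 ± 2.60, Slco1a4 at 12.4 ± 2.68 and Mfsd2a at 10.8 ± 1.82 CPM per kb (SD, n = 4). Abcb1a at 5.00 ± 0.272, Adgrf5 at 4.94 ± 0.245 and Pecam1 at 4.60 ± 0.679 CPM per kb lay within their spread of one another, as did Slco1c1, Slco1a4 and Mfsd2a. Flt1 at 2.73 ± 1.38 and Slc38a5 at 1.47 ± 0.416 CPM per kb were lowest. All 10 genes were counted in every library and passed the filter on low counts, with Slc38a5 the scarcest at 4 to 96 reads per library.

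The list was checked against 22 other genes of endothelial identity, such as Cdh5, Tek and Tie1, none of them a listed gene. None of the 22 was at 0 throughout a group, with summed levels of 54.9 to 65.1 CPM in acute Gly-Low and 98.3 to 148 CPM in acute control, ranges that did not overlap. The sums ran from 96.3 to 134 CPM in old Gly-Low, 81.7 to 246 CPM in old control and 90.0 to 146 CPM in young control. In whole tissue, fewer endothelial cells, less RNA per endothelial cell and the general differences between libraries given below cannot be told apart. Old control 4 stood apart with a sum of 246 CPM, against 81.7 to 107 CPM in the other old controls.

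The libraries of the acute arm also differed in general properties. Transcripts of the mitochondrial genome took 17.0% to 23.3% of counts in acute Gly-Low and 5.35% to 9.11% in acute control. The slope of expression on log2 transcript length ran from -0.43 to -0.23 in acute Gly-Low and from 0.14 to 0.23 in acute control, so long transcripts were relatively low in the treated libraries. Pituitary hormone genes summed to 74.1 to 298 CPM in acute Gly-Low, against 44.7 to 64608 CPM in acute control, with the highest sums in acute controls 2, 3 and 5. The 8 neuron markers summed to 3239 to 3720 CPM in acute Gly-Low and 4672 to 5815 CPM in acute control. Of these 8, 5 fell, against 30.5% of all genes tested. The 8 astrocyte markers summed to 2498 to 3189 CPM in acute Gly-Low, against 3210 to 4169 CPM in acute control. The 5 tanycyte markers summed to 94.3 to 106 CPM, against 133 to 175 CPM. The 5 erythrocyte markers summed to 556 to 1507 CPM in acute Gly-Low, against 72.8 to 323 CPM in acute control, and the 9 meningeal fibroblast markers to 154 to 324 CPM against 55.1 to 122 CPM. The part of these differences in the acute results was not tested, except where values under another scaling are given.

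**Figure D1:**
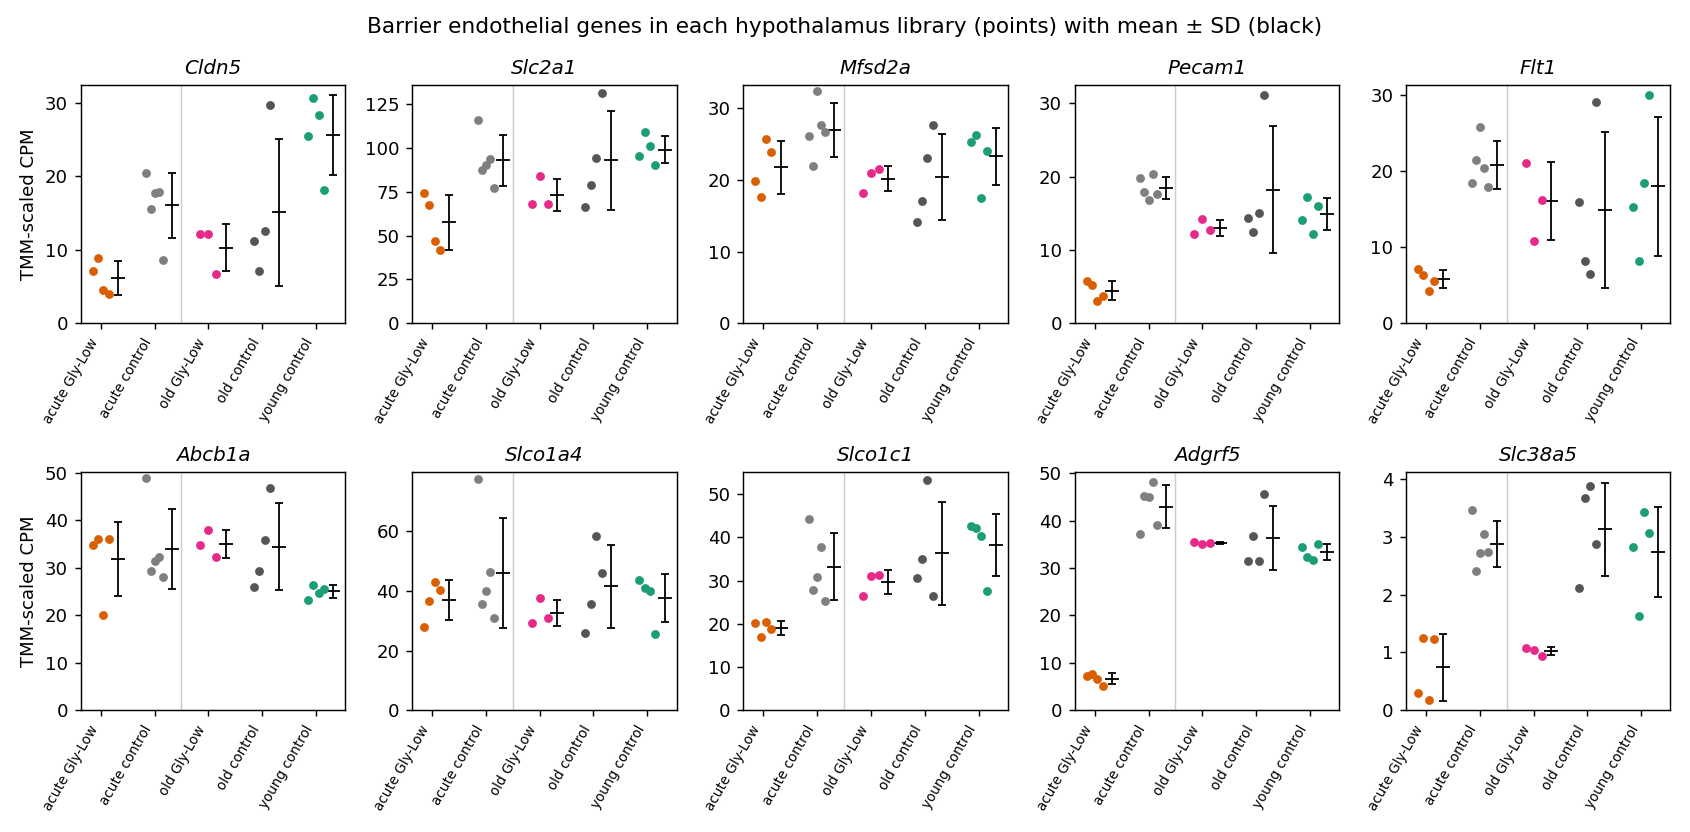
Levels of the 10 barrier endothelial genes, in TMM-scaled CPM on linear axes from 0, with 1 point per library and the mean ± SD of each group in black (n = 4 acute Gly-Low, 5 acute control, 3 old Gly-Low, 4 old control, 4 young control). Adgrf5 lay at 5.12 to 7.65 CPM in acute Gly-Low, below every other library, and Slc38a5 was low in both Gly-Low groups.

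In the acute arm, 10005 of 17161 genes tested passed an adjusted p of 0.05 (58.3%). For the 10 genes the median log2 fold change was -1.07, against -0.07 over all genes tested. The test was edgeR's quasi-likelihood F test with Benjamini-Hochberg adjustment over all genes tested. For 6 of the 10, all acute Gly-Low libraries lay below all acute controls, which held for 23.9% of genes tested.

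Among the surface receptors and adhesion molecules, Adgrf5 changed most. Adgrf5 encodes an adhesion G protein-coupled receptor of endothelium and lung epithelium. It had 7.30, 7.65, 6.50 and 5.12 CPM in the acute Gly-Low libraries, against 37.2, 45.1, 44.9, 48.1 and 39.1 CPM in the acute controls. The groups were far apart, and each was narrow. The log2 fold change was -2.67 ± 0.16 (SE), 6.37-fold lower, with an adjusted p of 1.67e-07 that ranked 7 among all genes tested.

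Pecam1, an adhesion molecule at endothelial cell contacts, had 5.78, 5.30, 3.09 and 3.76 CPM in acute Gly-Low, against 19.8, 18.0, 16.8, 20.3 and 17.6 CPM in acute control. All 4 acute Gly-Low libraries lay below the lowest acute control, and the log2 fold change was -2.03 ± 0.21 (edgeR adjusted p = 1.74e-06). Flt1 encodes VEGF receptor 1, which binds VEGF with high affinity and limits signalling through the main receptor Kdr. Flt1 had 7.12, 6.34, 4.28 and 5.62 CPM in acute Gly-Low, against 18.5, 21.4, 25.9, 20.4 and 18.0 CPM in acute control, with no overlap. Its log2 fold change was -1.82 ± 0.19 (edgeR adjusted p = 1.93e-06). Flt1 and Adgrf5 have the longest transcripts of the list, at 6593.5 and 6744.5 bases. When an offset removed each library's trend over transcript length, Adgrf5 was at -1.83 ± 0.17, Pecam1 at -1.68 ± 0.21 and Flt1 at -0.98 ± 0.20, and all 3 still passed, as did 6 of the 10 genes as lower and Abcb1a as higher, against 23.9% of all genes in either direction. When the length slope instead entered as a covariate over all 20 libraries, Adgrf5 was at -2.56 and Pecam1 at -2.004, both past the threshold like 8.76% of all genes in that direction, while Flt1 was at -0.15 ± 0.48 (edgeR adjusted p = 0.867).

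Cldn5, whose protein seals the paracellular route against small molecules, had 7.18, 8.86, 4.55 and 4.01 CPM in acute Gly-Low, against 20.4, 15.6, 17.7, 17.8 and 8.67 CPM in acute control. The groups overlapped through acute control 5, which lay just under the highest acute Gly-Low library. The log2 fold change was -1.36 ± 0.28 (edgeR adjusted p = 0.000741). Cldn5 has the shortest transcript of the list, 1416 bases, and stood at -1.85 ± 0.27 with the length offset. With the length covariate it was at -1.64 ± 0.61 and missed the threshold (edgeR adjusted p = 0.0608).

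The carriers differed among themselves. Slc2a1, the glucose transporter GLUT1 of barrier endothelium and, in another glycosylated form, of astrocytes, had 74.1, 67.1, 46.8 and 41.9 CPM in acute Gly-Low, against 116, 87.0, 90.1, 93.7 and 76.9 CPM in acute control. The groups did not overlap, though acute Gly-Low 1 came close to acute control 5. The log2 fold change was -0.67 ± 0.18 (edgeR adjusted p = 0.00518), and with the length offset it was -0.31 ± 0.19 and no longer passed (edgeR adjusted p = 0.199). With the length covariate it was -1.03 ± 0.30 and passed (edgeR adjusted p = 0.0196), so the 2 length corrections differed.

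Slco1c1, which carries thyroxine into the brain, had 20.3, 16.9, 20.4 and 18.7 CPM in acute Gly-Low, against 44.3, 27.8, 30.9, 37.7 and 25.2 CPM in acute control. The treated libraries were tightly grouped below a wider control range, at a log2 fold change of -0.79 ± 0.17 (edgeR adjusted p = 0.0013). Slco1c1 was at -0.60 ± 0.18 with the length offset (edgeR adjusted p = 0.012) and at -1.62 ± 0.24 with the length covariate (edgeR adjusted p = 0.000128). Slc38a5, a system N carrier of glutamine and other amino acids, had 0.304, 1.26, 0.182 and 1.23 CPM in acute Gly-Low, against 3.47, 2.41, 2.72, 3.05 and 2.74 CPM in acute control. The treated libraries split into a higher and a lower pair, both under every control. The log2 fold change of Slc38a5 was -1.94 ± 0.49 (edgeR adjusted p = 0.00347). It rests on 4 to 23 reads per acute Gly-Low library and 64 to 86 per acute control, so counting error is largest here. With the length covariate it was -1.94 ± 0.69 and missed the threshold (edgeR adjusted p = 0.0519).

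The remaining carriers and the efflux pump did not pass. Mfsd2a, which imports docosahexaenoic acid as lysophosphatidylcholine and restrains transcytosis, had 19.8, 17.5, 25.7 and 23.8 CPM in acute Gly-Low, against 26.1, 21.9, 32.3, 27.7 and 26.6 CPM in acute control. The log2 difference was -0.29 ± 0.15 with overlapping groups (edgeR adjusted p = 0.113). Slco1a4, an organic anion carrier, had 27.8, 36.7, 42.9 and 40.2 CPM in acute Gly-Low, against 77.3, 35.7, 39.95, 46.3 and 30.9 CPM in acute control, where control 1 stood high. Its log2 difference was -0.31 ± 0.23 (edgeR adjusted p = 0.271). Without acute controls 2, 3 and 5, Slco1a4 was at -0.77 and passed (edgeR adjusted p = 0.0149), which made 8 of 10 lower, where 21.1% of 17586 genes tested were lower. Abcb1a, whose P-glycoprotein expels drugs to the blood, had 34.8, 36.0, 20.1 and 36.0 CPM in acute Gly-Low, against 48.8, 29.3, 31.5, 32.2 and 28.1 CPM in acute control. The log2 difference of Abcb1a was -0.08 ± 0.20 (edgeR adjusted p = 0.748), and it turned to a called rise of 0.63 ± 0.24 with the length offset (edgeR adjusted p = 0.042). Its near copy Abcb1b rose by 0.81 ± 0.23 (edgeR adjusted p = 0.0068), and Slco1a5, a near copy of Slco1a4, rose by 2.11 ± 0.53 (edgeR adjusted p = 0.00325). Slco1a1 had no count in any library and Slco1a6 at most 4. Reads shared between such copies may have been split or dropped in the counting, so the values of Abcb1a and Slco1a4 are uncertain to that extent.

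**Figure D2:**
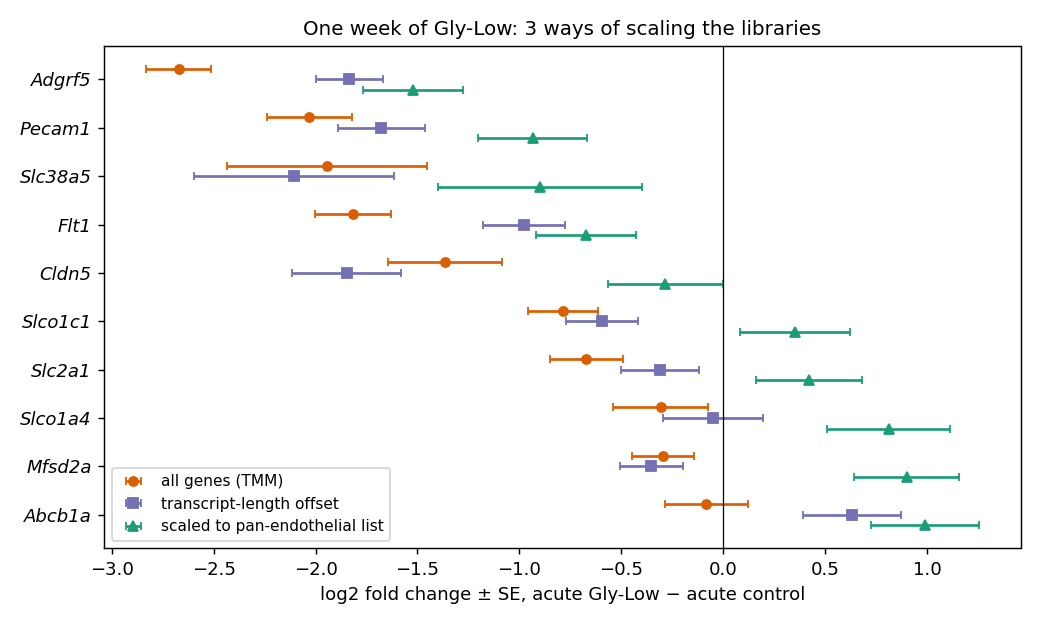
Log2 fold changes ± SE of the 10 genes, acute Gly-Low minus acute control (n = 4 and 5), with libraries scaled to all genes by TMM (circles), with an offset for transcript length (squares), or scaled to the 22 pan-endothelial genes (triangles). Adgrf5, Pecam1 and Flt1 lay below 0 under all 3, while Abcb1a, Mfsd2a and Slco1a4 lay between 0.81 and 0.99 relative to the endothelial genes.

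Scaling the libraries to the pan-endothelial list set the 10 genes against other endothelial transcripts in place of all transcripts. This moved the median of all genes tested to 1.10, so values are relative to endothelium only. On this scale 63.2% of all genes tested passed as higher and 3.07% as lower. Of the 10 genes, 3 were lower, Adgrf5 at -1.52 ± 0.25 (edgeR adjusted p = 2e-06), Pecam1 at -0.94 ± 0.27 (0.0026) and Flt1 at -0.67 ± 0.25 (0.0163). Another 3 were higher, Abcb1a at 0.99 ± 0.27 (edgeR adjusted p = 0.0015), Mfsd2a at 0.90 ± 0.26 (0.00268) and Slco1a4 at 0.81 ± 0.30 (0.0184), though each stayed below the all-gene median on the same scale. Slc2a1 at 0.42, Slco1c1 at 0.35, Cldn5 at -0.28 and Slc38a5 at -0.90 did not pass. Under TMM the median of the 21 pan-endothelial genes tested was -1.28, near the -1.07 of the 10 genes.

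Other genes linked to vessels and the barrier were described by lists, here called vascular, with counts past the threshold of edgeR's test in the acute arm. These counts are to be read against the 30.5% of all genes tested that were lower and the 27.8% that were higher. Whole tissue does not show which cells a transcript came from, so the lists are not measures of endothelium alone. In acute control the barrier Wnt list summed to 726 to 983 CPM and the further barrier transporters to 589 to 678 CPM. The pan-endothelial genes summed to 98.3 to 148 CPM there. Of the 21 pan-endothelial genes, 15 fell and 1 rose. Tie1 and Tek, receptors of the angiopoietin system, were at -3.52 ± 0.39 and -1.91 ± 0.28, and the phosphatase gene Ptprb, whose protein restrains Tek, was at -2.61 ± 0.20. Ecscr, an endothelial surface protein, was the gene that rose, at 1.66 ± 0.36. Of 14 further barrier transporters, 8 fell and 2 rose, with a median of -0.85. The cationic amino acid carrier Slc7a1 fell by 2.18, the glutamine carrier Slc38a3 by 1.73 and the large neutral amino acid carrier Slc7a5 by 1.73 on the log2 scale. The efflux pump Abcg2 rose by 1.13 ± 0.14 and the organic anion carrier Slc22a8 by 1.13 ± 0.24.

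Of 10 tight junction genes, 5 fell and none rose, with a median of -0.52. The scaffold Tjp1 was at -1.46 ± 0.15, and cingulin, Cgn, was at -2.27 ± 0.45 and stood at 0.53 with the length covariate. Caveolar genes went the other way: 4 of 6 genes of caveolae and fenestrae rose and none fell, with a median of 0.82. The caveolins Cav2 and Cav1 rose by 1.43 ± 0.18 and 0.82 ± 0.15, and the cavins Cavin3 and Cavin2 by 1.203 ± 0.15 and 0.83 ± 0.14. With the length offset 4 of 6 still passed as higher and the list median was 0.52. Plvap, which forms the diaphragms of fenestrae, averaged 2.55 ± 1.33 CPM in acute Gly-Low and 3.85 ± 2.12 CPM in acute control (SD, n = 4 and 5) and did not pass (edgeR adjusted p = 0.333).

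Wnt signals maintain the barrier phenotype, and of 14 tested genes of that pathway 9 fell and 2 rose. Ndp, which encodes the ligand norrin, rose by 0.95 ± 0.18, and Tspan12, its co-receptor, rose by 0.77 ± 0.15, although Tspan12 was at -0.045 with the length covariate. The co-receptor Lrp6 was at -0.66 ± 0.13, yet stood at 0.36 with the length offset and 0.52 on the pan-endothelial scale. Of 9 VEGF ligands and receptors, 3 fell and 2 rose, close to the shares over all genes. Nrp2 was at -1.67 ± 0.19, Kdr at -1.50 ± 0.33 and Nrp1 at -1.07 ± 0.14, whereas the ligands Pgf and Vegfb rose by 0.88 ± 0.19 and 0.37 ± 0.15. Nrp1 stood at 0.12 on the pan-endothelial scale and Nrp2 at 0.70 with the length covariate. Of 6 arterial genes, Efnb2 at -1.11 and Sema3g at -1.85 fell, and of 4 venous and adhesion genes, Ackr1 at -2.38 and Icam1 at -1.07 fell. With the length covariate, Efnb2 stood at 0.47, Sema3g at 0.67 and Icam1 at 0.57, and on the pan-endothelial scale Efnb2 stood at 0.070 and Icam1 at 0.10. For Icam1 the call (edgeR adjusted p = 0.0356) was also lost under 13 other alternatives, with adjusted p-values up to 0.216. With the length covariate, Tie1, Ptprb, Slc7a5, Cav2, Cavin3, Ndp, Lrp6, Kdr and Ackr1 no longer passed, nor did Kdr with the length offset, or Kdr, Tjp1 and Sema3g on the pan-endothelial scale. Of 13 mural cell genes, 4 fell, close to the share over all genes, and 2 rose, with a median of -0.41.

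**Figure D3:**
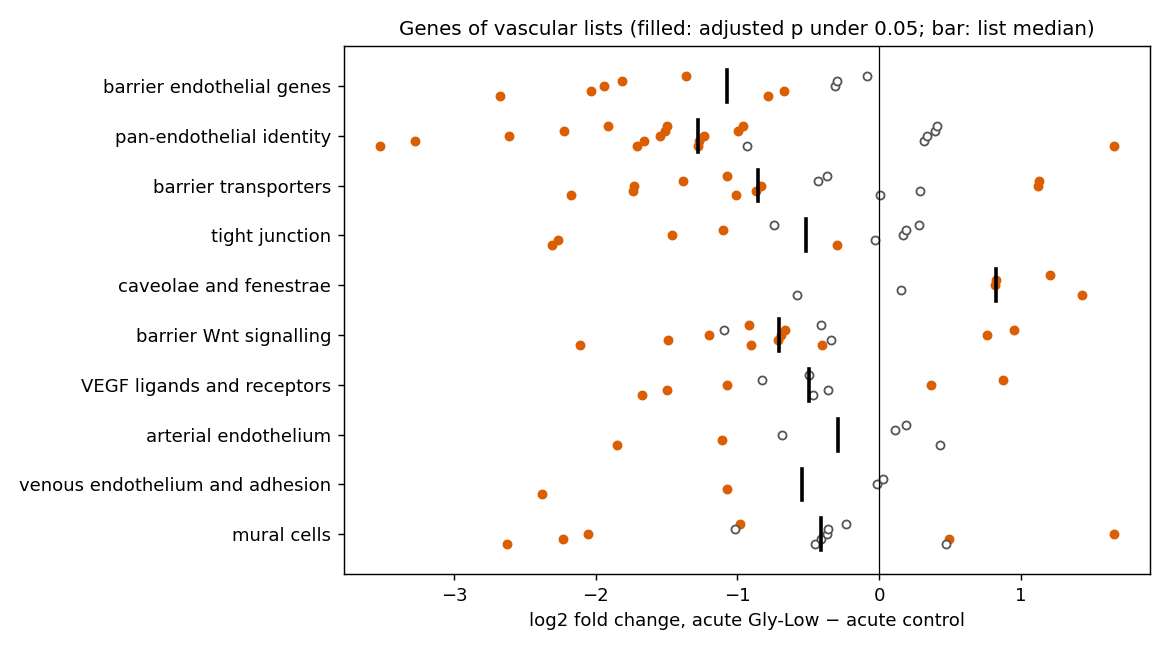
Log2 fold changes, acute Gly-Low minus acute control, for each tested gene of 10 vascular lists, filled where the edgeR adjusted p was under 0.05, with a bar at the list median. The medians lay at -1.07 for the barrier endothelial genes and -1.28 for pan-endothelial identity, and at 0.82 for caveolae and fenestrae.

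In old mice, 5 months of Gly-Low moved 0 of the 10 genes past the threshold, as it moved 0 of 18281 genes tested (0%). DESeq2 called 3 genes (0.0164%) and limma-voom 0, edgeR had 433 genes at an unadjusted p under 0.05, and 1 of the 10 had an unadjusted edgeR p under 0.05. The median log2 difference of the 10 was -0.30, against 0.03 over all genes tested. Slc38a5 had 1.08, 1.04 and 0.945 CPM in old Gly-Low, against 2.11, 3.67, 3.87 and 2.87 CPM in old control. The 3 old Gly-Low libraries were close together and all lay below the lowest old control, a pattern that 3.50% of genes tested showed in this direction. Its log2 difference was -1.59 ± 0.35 on 27 to 28 reads per old Gly-Low library and 48 to 96 per old control. The p of 0.000775 ranked 4 among all genes and the edgeR adjusted p was 0.953, so it did not pass, while the DESeq2 adjusted p was 0.0407. Leaving out each library in turn gave -1.74 to -1.45.

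The other 9 genes overlapped between old Gly-Low and old control. Adgrf5, the gene that fell most in the acute arm, had 35.4, 35.1 and 35.3 CPM in old Gly-Low, against 31.4, 36.7, 31.5 and 45.6 CPM in old control. The log2 difference of Adgrf5 was -0.02 ± 0.16. Cldn5 had 12.1, 12.2 and 6.65 CPM in old Gly-Low, against 11.1, 7.13, 12.5 and 29.7 CPM in old control. Old control 4 alone set the difference of Cldn5: it was -0.52 ± 0.43 with all libraries and -0.000691 without that library. Pecam1 had 12.1, 14.3 and 12.7 CPM in old Gly-Low, against 14.3, 12.5, 15.1 and 31.1 CPM in old control, and its log2 difference of -0.45 ± 0.29 was -0.10 without old control 4. Flt1 was widely spread, with 21.0, 10.8 and 16.2 CPM in old Gly-Low and 15.9, 8.15, 6.50 and 29.0 CPM in old control. Paired by title number, Flt1 was higher in old Gly-Low in 3 of 3 pairs, at 0.61 ± 0.28 with the replicate block (edgeR adjusted p = 0.291) against 0.14 ± 0.52 without it. Slco1c1 was lower in 3 of 3 pairs, at -0.40 ± 0.18 with the block (edgeR adjusted p = 0.295) against -0.28 ± 0.27 without it, and neither passed. These pairs rest on title numbers only, and no pairing is stated in the labels. By the numbers of the deposited columns, old Gly-Low 2 would face old control 4. There Flt1 was lower in old Gly-Low, at 10.8 against 29.0 CPM, and Slco1c1 higher, at 31.0 against 26.4 CPM.

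**Figure D4:**
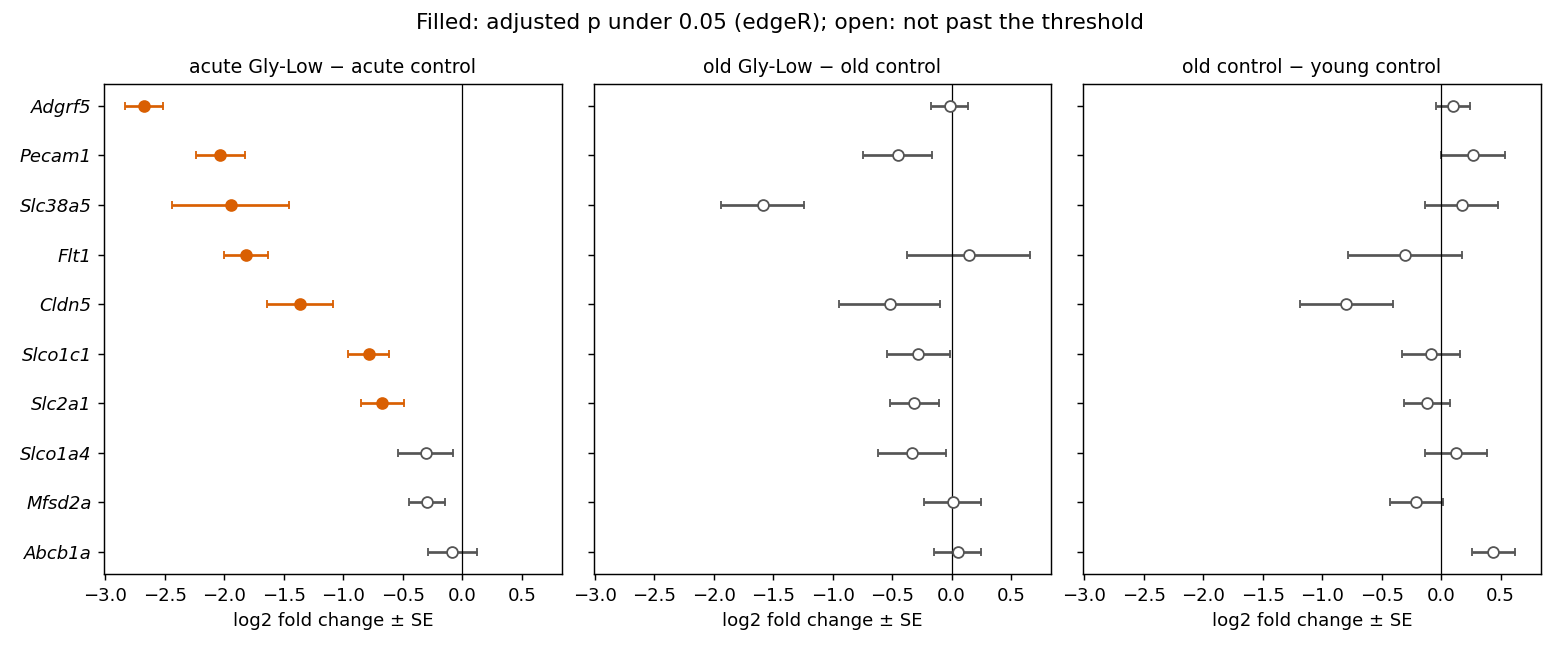
Log2 fold changes ± SE of the 10 genes for acute Gly-Low minus acute control, old Gly-Low minus old control, and old control minus young control, filled where the edgeR adjusted p was under 0.05. Only the acute panel has filled points, 7 of 10, and Slc38a5 lies at -1.59 in the old diet panel.

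Old control and young control libraries differed in 6 of 18281 genes tested (0.0328%), and in 0 of the 10. The old controls also serve as the reference of the old diet comparison. Old minus young differences ran from -0.80 for Cldn5 to 0.44 for Abcb1a, with a median of 0.01 against 0.02 over all genes tested. Cldn5 had 11.1, 7.13, 12.5 and 29.7 CPM in old control, against 25.4, 30.7, 28.3 and 18.1 CPM in young control. Old controls 1, 2 and 3 lay below all young controls and old control 4 lay among them. The log2 difference of Cldn5 was -0.80 ± 0.39 (edgeR adjusted p = 0.581), or -1.32 ± 0.31 without old control 4 (edgeR adjusted p = 0.196), and limma-voom with quality weights gave -1.15 ± 0.29 with an adjusted p of 0.0198, where it called 21.4% of all genes. Abcb1a had 25.9, 29.3, 35.7 and 46.7 CPM in old control, against 23.2, 26.4, 24.7 and 25.6 CPM in young control, overlapping only at the lowest old control. Its log2 difference was 0.44 ± 0.18 (edgeR adjusted p = 0.488).

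The remaining genes overlapped between old and young mice. Slc2a1 had 66.4, 78.8, 94.2 and 131 CPM in old control, against 95.4, 109, 101 and 90.3 CPM in young control. The old range of Slc2a1 enclosed the young one. Slco1c1 had 30.7, 34.9, 53.4 and 26.4 CPM in old control, against 42.7, 42.3, 40.2 and 27.5 CPM in young control. Mfsd2a averaged 20.4 ± 6.03 CPM in old control and 23.3 ± 3.92 CPM in young control (SD, n = 4 each), and Slco1a4 averaged 41.5 ± 14.0 CPM in old control and 37.6 ± 8.15 CPM in young control. Slc38a5 averaged 3.13 ± 0.808 CPM in old control and 2.74 ± 0.778 CPM in young control. In the age and old diet comparisons, edgeR also called 0 genes in each of the other vascular lists.

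Both control groups of young mice received control diet for 1 week, at 4 months in acute control and 3 months in young control. Between them, 1009 of 19061 genes tested passed (5.29%), and 0 of the 10. An unadjusted edgeR p under 0.05 was found for 3953 of the 19061 genes and for 2 of the 10. Adgrf5 had 37.2, 45.1, 44.9, 48.1 and 39.1 CPM in acute control, against 34.4, 32.2, 31.6 and 35.0 CPM in young control. Every acute control was above every young control, at a log2 difference of 0.36 ± 0.14 (edgeR adjusted p = 0.128), which turned to -0.069 ± 0.20 with the length offset. Abcb1a, at 0.44 ± 0.20 (edgeR adjusted p = 0.214), also had separate groups, which 2.11% of genes tested showed in this direction. Limma-voom with quality weights, which called 31.8% of all genes, called 3 of the 10, Adgrf5 higher at 0.39, and Cldn5 at -0.81 and Slco1c1 at -0.42 lower.

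The diet effects of the arms were compared in 1 fit of all 20 libraries as the old diet minus the acute diet log2 fold change. Of 19061 genes tested, 6859 differed (36%, and 9.01% with the length covariate), with 16.8% higher, that is, less negative or more positive in old mice. Among the 10, 3 differed and all 3 were higher. The difference was 2.65 ± 0.21 for Adgrf5 (edgeR adjusted p = 7.57e-07, rank 3), 1.56 ± 0.36 for Pecam1 (0.00246) and 1.94 ± 0.57 for Flt1 (0.0129). For Flt1 the difference was -0.12 with the length covariate, and it did not pass with the length offset, at 0.86 (edgeR adjusted p = 0.126), or without acute controls 2, 3 and 5 (edgeR adjusted p = 0.0687). Pecam1 did not pass with the length covariate, at 1.505 (edgeR adjusted p = 0.0798). Without old control 4, when 39.9% of genes differed, Cldn5 also passed, at 1.38 (edgeR adjusted p = 0.0216), as it did with the length offset (edgeR adjusted p = 0.0497). Slco1c1, at 0.50 and not called with all libraries, passed without old control 3, at 0.75 (edgeR adjusted p = 0.0422), without young control 2 and old control 3, at 0.77 (edgeR adjusted p = 0.0373), and with the length covariate, at 1.60 (edgeR adjusted p = 0.00551). Scaled to the pan-endothelial list, 1 of the 10 differed against 38.2% of all genes, Adgrf5 at 1.38 ± 0.48 (edgeR adjusted p = 0.021). For Slc38a5 the difference was 0.35 ± 0.61 (edgeR adjusted p = 0.683), so its acute and old diet values of -1.94 and -1.59 were not told apart.

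Within groups, the 10 genes did not vary as one block. Over the 20 libraries, the deviations of log2 CPM from the group mean had a median Pearson correlation of 0.21 over 45 gene pairs, with 11 pairs over 0.5 and 9 below 0. The libraries share depth and composition effects, so these correlations are descriptions. Cldn5 and Slc2a1 moved together (r = 0.82), as did Slc2a1 and Pecam1 (0.80) and the neighbouring carriers Slco1a4 and Slco1c1 of chromosome 6 (0.73). Flt1 and Slco1c1 ran opposite to each other (r = -0.68). In old control 4, Flt1 was 1.22, Cldn5 1.18 and Pecam1 0.87 log2 units above the group mean, whereas Slco1c1 was 0.41 units below it, at -0.41.

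**Figure D5:**
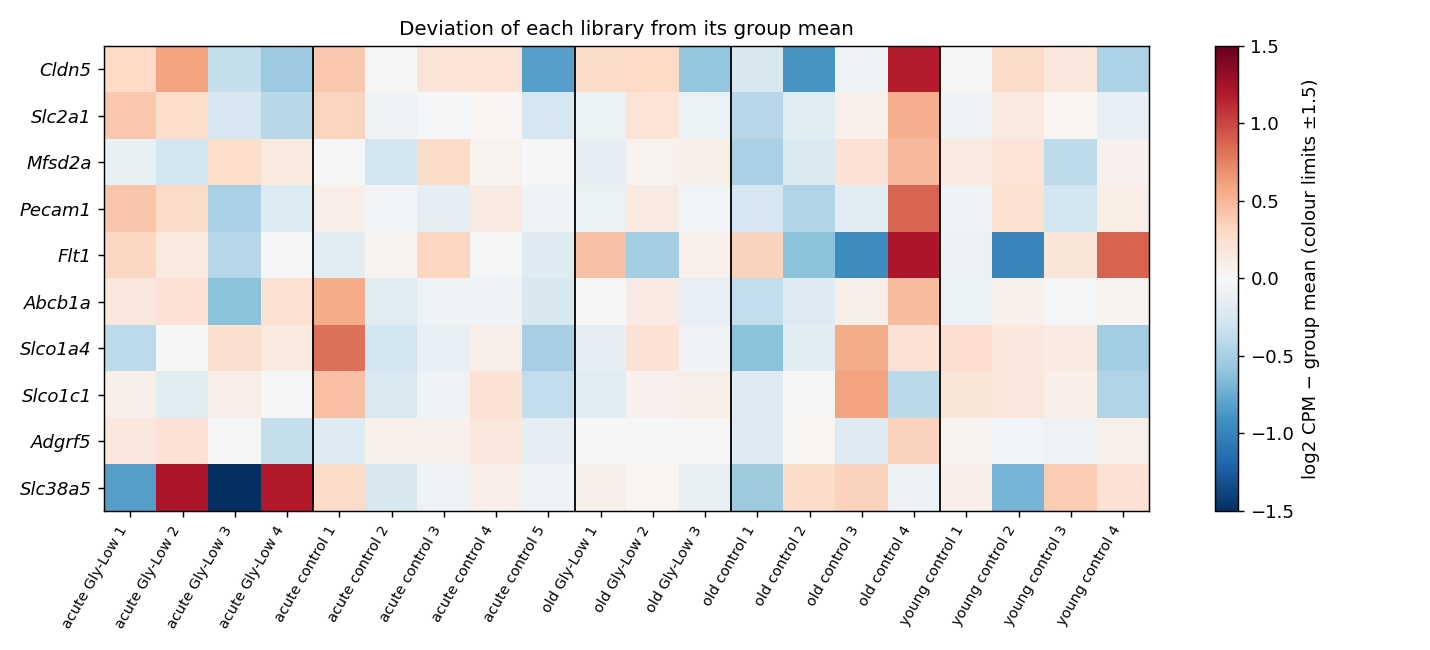
Deviation of log2 CPM from the group mean for each of the 10 genes (rows) in each of the 20 libraries (columns), with colours limited to ±1.5. Old control 4 is high for Cldn5, Pecam1 and Flt1, and Slc38a5 varies most within acute Gly-Low.

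Among 15482 other protein-coding genes, those most like the mean deviation of the 10 over the 20 libraries were Igip (r = 0.86), Fbxl12 (0.77), Mapk12 (0.76), Necab3 (0.76), Pglyrp1 (0.76) and Paqr5 (0.76). The single most similar gene was Tie1 for Flt1 (r = 0.96), Vmp1 for Slco1c1 (0.94), Slc25a16 for Slco1a4 (0.90), Aloxe3 for Adgrf5 (0.89) and Dgat1 for Cldn5 (0.88). It was Mapk12 for Pecam1 (0.83), Pglyrp1 for Slc2a1 (0.82), Ifi27l2a for Abcb1a (0.81), Mat2a for Mfsd2a (0.79) and Ccl4 for Slc38a5 (0.77). The mean deviation of the 10 had r = 0.52 with that of the pan-endothelial genes, -0.11 with the length slope and 0.16 with the mitochondrial share. This mean does not describe single genes. Young control 2 and old control 3 had slopes of -0.27 and -0.20, with Flt1 at -0.99 and -0.94 and Slco1c1 at 0.17 and 0.61. Young control 4 had 0.22, with 0.89 and -0.45. In acute Gly-Low, Flt1 went the other way, at 0.31 in library 1 (-0.43) and -0.42 in library 3 (-0.23). The part of length in these likenesses was not tested.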

How the data were processed

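Whole-hypothalamus RNA was poly-A selected and made into non-directional libraries, per the labels' protocols, so a gene and an antisense partner cannot be told apart. The authors deposited raw read counts per gene for 20 libraries, as unnormalized whole numbers. Build GRCm38 and the tools featureCounts 1.5.0-p3, HISAT2 2.0.5 and DESeq2 1.20.0 are named, without their roles, per the submitters' processing notes. The annotation release and the strand option of the counting were not given in the sources used here. Symbols, positions and transcript lengths came from GENCODE for GRCm38, which matched 54495 of 54532 genes, and sequences at gene starts from RefSeq on GRCm38.p6.

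The listed genes, the other gene lists, tests and alternatives were chosen with earlier results of these data known. Genes were filtered with filterByExpr, scaled by TMM and tested with edgeR 4.0.16 (R 4.3.3), at a threshold of 0.05 on p adjusted by Benjamini-Hochberg over all genes tested. The acute comparison used its 9 libraries, age and old diet the 11 of the ageing arm, and the others all 20. CPM values use TMM factors from all 20 libraries, and correlations use log2 CPM with a prior count of 2. The text names all 10 genes and their near copies, up to 3 genes with the smallest p of each endothelial list, and the genes most alike in deviation over libraries; 1 gene that the rule names is not reported here. Cav1, Plvap, Ecscr, Abcg2, Slc22a8, Pgf and Vegfb lie outside that rule and were named after their values were seen. Alternatives were other size factors, DESeq2 1.42.0, limma-voom (limma 3.58.1), other filters and sample sets, scaling to the pan-endothelial list, an offset over 40 bins of transcript length, the length slope as a covariate, the replicate number as a block and leaving out libraries. The procedure was tested on simulated counts.

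Total counts ran from 15848372 to 27399753 per library, which limits Slc38a5 most. Deviations of old Gly-Low and old control libraries of the same title number correlated at 0.276 to 0.447 over 3 pairs. Each old Gly-Low library correlated best with an old control of another number, and no pairing is stated in the labels. The block by title number was therefore run only as an alternative. Values are from the fit without this block unless it is named. In the deposited count table, old Gly-Low columns are numbered otherwise than the titles.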

Additional observations from a re-analysis of the deposited data

Results flagged for a closer look

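Some values of single libraries stood far from the rest of their group, measured as the gap to the nearest library over the range of the group. Of 48 groups of values checked, 5 did so, and chance alone marks about 1 in 20 groups. Pecam1 had 31.1 CPM in old control 4, and the summed pan-endothelial genes had 246 CPM in the same library. Abcb1a had 20.1 CPM in acute Gly-Low 3, below the other acute Gly-Low libraries, and 48.8 CPM in acute control 1, above the other acute controls. Slco1c1 had 27.5 CPM in young control 4, below the other young controls.

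The diet effect differed between the arms by a test of the difference itself for 3 genes, as the old diet minus the acute diet log2 fold change. It differed by 2.65 ± 0.21 for Adgrf5, 1.94 ± 0.57 for Flt1 and 1.56 ± 0.36 for Pecam1, with edgeR adjusted p-values of 7.57e-07, 0.0129 and 0.00246. With the length covariate Flt1 was at -0.12 and Pecam1 did not pass (edgeR adjusted p = 0.0798), with the length offset Flt1 did not pass (edgeR adjusted p = 0.126), nor did it without acute controls 2, 3 and 5 (edgeR adjusted p = 0.0687), and scaled to the pan-endothelial list only Adgrf5 of the 3 passed. Each was lower in every acute Gly-Low library than in every acute control, as were 23.9% of genes tested in the acute arm. The arms differ in age, in the duration of the diet and in the make-up of the acute libraries, which cannot be told apart.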

How the results depend on the processing

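Counts of the 10 genes past the threshold were compared without regard to direction or to which genes passed. Of 132 alternative counts, 126 lay within 1.5 times the count reported. Those that did not were, for the acute diet, 4 in place of 7 with the length covariate; for age, 1 in place of 0 with limma-voom; for the old diet, 1 in place of 0 with DESeq2; and for the young controls, 3 in place of 0 with limma-voom. For the diet difference between arms, limma-voom gave 6 (46.0%) and scaling to the pan-endothelial list 1 (38.2%), in place of 3. Some of the 126 held other directions or genes. For the acute diet, scaling to the pan-endothelial list gave 3 higher (63.2% of all genes) and 3 lower (3.07%), in place of 7 lower. For the difference between arms, the length covariate gave Adgrf5 and Slco1c1 (9.01% of all genes), in place of Adgrf5, Pecam1 and Flt1. Leaving out each library in turn gave 7 for the acute diet, 3 to 4 for the difference between arms, and 0 for age, the old diet and the young controls. The replicate block gave 7, 0, 0 and 3 genes for the acute diet, age, the old diet and the difference between arms and changed no call among the 10. The block could not be estimated for the young controls. For the acute diet and age, libraries of the same number correlated at -0.03 to 0.01 and -0.05 to 0.63.

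Over all genes, the acute diet count was 3807 with the length covariate, in place of 10005. The age count of 6 was 13 scaled to the pan-endothelial list, 388 with DESeq2, 3920 with limma-voom, 11 with no filter, 19 with the length offset, 120 with all 20 libraries, 0 with only 2 groups in the fit, 413 with the length covariate, 2 without young control 2 and old control 3, and 0 to 6 with each library left out. The old diet count was 3 with DESeq2. The young controls count of 1009 was 256 scaled to the pan-endothelial list, 1746 with DESeq2, 6068 with limma-voom, 241 with the length offset, 402 without young control 2 and old control 3, 0 with the length covariate or without acute controls 2, 3 and 5, and 0 to 3957 with each library left out. The difference between arms count of 6859 was 4430 with the length offset, 1718 with the length covariate and 4506 without acute controls 2, 3 and 5.

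Log2 fold changes that turned sign follow. Scaled to the pan-endothelial list, the acute diet values were 0.42 for Slc2a1, 0.90 for Mfsd2a, 0.99 for Abcb1a, 0.81 for Slco1a4, 0.35 for Slco1c1, 0.52 for Lrp6, 0.12 for Nrp1, 0.070 for Efnb2 and 0.10 for Icam1. On that scale the difference between arms was -0.18 for Cldn5, -0.82 for Slc2a1, -0.98 for Mfsd2a, -1.04 for Abcb1a, -0.89 for Slco1c1 and -0.93 for Slc38a5. With the length covariate, the acute diet values were 0.53 for Cgn, -0.045 for Tspan12, 0.70 for Nrp2, 0.47 for Efnb2, 0.67 for Sema3g and 0.57 for Icam1, and the difference between arms was -0.12 for Flt1 and 0.91 for Slco1a4. With the length offset, the acute diet values were 0.63 for Abcb1a and 0.36 for Lrp6, age gave -0.10 and the young controls -0.069 for Adgrf5, the old diet gave -0.21 for Abcb1a, and the difference between arms was -0.10 for Slc2a1 and -0.83 for Abcb1a. Limma-voom gave -0.48 for Slco1a4 and -0.27 for Slc38a5 with age, and 0.15 for Slco1a4 and 0.0086 for Slco1c1 with the old diet. Without old control 4, Pecam1 was at -0.10 with age, and leaving out each library in turn gave -0.10 to 0.40. Without acute controls 2, 3 and 5, the difference between arms was 0.37 for Slco1a4. Another 56 sign changes lay within 1 SE and concerned values not called in either setting. Apart from the left-out libraries named, the cause of these turns was not tested.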
